A study of Mus musculus with 24 samples.

Results

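The surrogate light chain genes Vpreb1, Vpreb2 and Igll1, with their relative Vpreb3, were followed through bone marrow B-cell development by chromatin accessibility. The 4 genes were chosen by name from the 21631 protein-coding genes of the RefSeq annotation of GRCm38.p6, the mm10 assembly. Each was given a window of its gene body and 10 kb on both sides. The windows held 18 of the 159336 regions made by joining overlapping peaks of all libraries. The windows of Vpreb1 and Igll1 overlap, so 5 of the regions belong to both.

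Vpreb1 and Vpreb2 encode near-identical VpreB chains, which resemble an immunoglobulin variable domain without being rearranged. Igll1 encodes the λ-like chain that resembles a light-chain constant region. A VpreB chain and the Igll1 product pair to form the surrogate light chain, which holds a newly made heavy chain in the pre-B-cell receptor on large pre-B cells. Signals from that receptor drive the cells to divide, after which the surrogate light chain genes are silenced and the conventional light-chain genes are recombined. Vpreb3 encodes a related protein that associates with immunoglobulin chains inside the cell. Its expression lasts into later B-cell stages.

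The assay was ATAC-seq, in which a transposase cuts DNA that is not covered by nucleosomes, on cells sorted from mouse bone marrow as pre-pro-B, pro-B or small pre-B cells. At each stage, Mki67-/- mice, which lack the proliferation marker Ki-67, were set against WT mice. Each of the 6 groups had 4 libraries, and the mm10 peak list of each of the 24 libraries was used. The labels give neither the age or strain of the mice, nor the position of the deletion, nor whether libraries came from separate mice. P-values therefore measure the spread between libraries, and libraries of different stages may share mice.

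Each library gave 54387 to 88946 peaks after overlapping entries were merged, and a background coverage of 1.86 to 5.3 was recovered from the peak callers' statistics as a stand-in for depth. A peak at the annotated start of Mki67 (chr7:135689784-135716450) was present in 24 of 24 libraries, which does not check the deletion. Among the 40000 strongest peaks, the windows of 8 B-lineage marker genes (among them Ebf1, Pax5, Cd79a, Cd79b, Rag1, Rag2 and Blnk) together held 22 to 25 peaks in Mki67-/- and 24 to 28 in WT pre-pro-B libraries. They held 54 to 59 in Mki67-/- and 55 to 59 in WT pro-B libraries, and 49 to 54 in Mki67-/- and 48 to 54 in WT small pre-B libraries. Libraries that stood apart were replicate 4 of the Mki67-/- pre-pro-B group and replicate 1 of the Mki67-/- small pre-B group, with the lowest coverage, and WT small pre-B replicate 1, with 85621 peaks against 63332 to 69941 in the other libraries of its group. Results that change without these 3 libraries are given both ways.

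All 4 genes have an annotated start that lies in an accessible region, and these start sequences are shown because regions that changed between stages lie there. Each runs 5′ to 3′ on the gene's own strand from 250 bases before to 50 bases after the start given by RefSeq on GRCm38.p6. Igll1 (chr16:16863936-16864235, minus strand) and Vpreb1 (chr16:16869206-16869505, minus strand) are neighbours on chromosome 16. Vpreb2 (chr16:17980315-17980614, plus strand) lies on the same chromosome, and Vpreb3 (chr10:75948050-75948349, plus strand) on chromosome 10. Capitals mark matches, on either strand, to CCCNNGGG (the core of EBF1 sites), to the E boxes CAGCTG and CAGGTG, to TGGGAA (an Ikaros core) and to TGTGGT (a Runx core).
Igll1: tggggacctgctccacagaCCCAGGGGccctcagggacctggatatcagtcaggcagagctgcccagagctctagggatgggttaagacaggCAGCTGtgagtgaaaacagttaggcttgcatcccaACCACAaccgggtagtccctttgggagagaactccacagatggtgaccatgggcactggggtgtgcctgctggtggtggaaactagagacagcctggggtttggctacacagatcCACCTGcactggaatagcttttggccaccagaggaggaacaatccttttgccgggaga
Vpreb1: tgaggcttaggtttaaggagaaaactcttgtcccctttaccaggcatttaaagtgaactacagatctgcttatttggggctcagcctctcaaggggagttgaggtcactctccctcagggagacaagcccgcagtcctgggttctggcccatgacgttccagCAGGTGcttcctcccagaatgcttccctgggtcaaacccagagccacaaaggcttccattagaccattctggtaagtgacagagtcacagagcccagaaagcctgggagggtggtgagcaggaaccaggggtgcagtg
Vpreb2: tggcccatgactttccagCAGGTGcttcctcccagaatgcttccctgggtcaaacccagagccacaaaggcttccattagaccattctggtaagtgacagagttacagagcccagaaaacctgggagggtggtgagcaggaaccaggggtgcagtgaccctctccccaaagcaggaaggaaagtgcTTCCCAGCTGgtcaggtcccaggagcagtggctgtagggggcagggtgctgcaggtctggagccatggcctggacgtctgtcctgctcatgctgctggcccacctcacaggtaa
Vpreb3: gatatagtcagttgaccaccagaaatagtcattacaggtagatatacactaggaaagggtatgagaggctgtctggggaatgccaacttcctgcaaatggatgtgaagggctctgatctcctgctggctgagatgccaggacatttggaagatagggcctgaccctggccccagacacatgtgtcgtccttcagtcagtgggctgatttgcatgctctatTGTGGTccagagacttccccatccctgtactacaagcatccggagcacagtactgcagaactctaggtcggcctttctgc
The Igll1 sequence held CCCNNGGG 231 bases before its start, TGTGGT 123 bases before it, CAGCTG 158 bases before it and CAGGTG 8 bases before it. Vpreb1 held CAGGTG 88 bases before its start and no other match. Vpreb2 held CAGGTG 232 bases before its start, and an overlapping TGGGAA and CAGCTG 64 and 60 bases before it. Vpreb3 held TGTGGT 30 bases before its start. Of 32851 RefSeq promoter sequences of this length, 13.7% held CCCNNGGG, 16.3% CAGCTG, 20.2% CAGGTG, 25.6% TGGGAA and 16.8% TGTGGT. A match is a description of the letters and not a sign of binding. The last 156 bases of the Vpreb1 sequence and the first 156 of the Vpreb2 sequence were identical at 153 positions, and the CAGGTG they share lies in this stretch. How reads that fit both copies were placed is not given in the sources used here, so the peaks at these 2 starts are uncertain as to their copy. The regions described here covered all 300 bases of the Igll1, Vpreb1 and Vpreb2 sequences and 172 of the 300 bases of the Vpreb3 sequence.

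The 4 windows gained peaks at the pro-B stage, after which Vpreb1, Igll1 and Vpreb2 had fewer peaks in small pre-B cells and Vpreb3 had on average as many, not all at the same sites. Numbers are merged peaks among the 40000 of each library with the highest deposited -log10 q, because whole lists are longer at some stages than at others. Vpreb1 had 2, 2, 2 and 1 peaks in Mki67-/- pre-pro-B libraries and 1, 2, 1 and 1 in WT ones. In pro-B cells it had 5, 7, 5 and 5 in Mki67-/- and 6, 6, 6 and 5 in WT libraries, and in small pre-B cells 3, 4, 4 and 4 in Mki67-/- and 3 in every WT library. Every pro-B library was thus above every library of the other stages. Igll1, whose window shares most of these peaks, had 2 or 3 peaks per pre-pro-B library, 5 to 8 per pro-B library and 4 to 6 per small pre-B library, so that pro-B and small pre-B overlapped. Vpreb2 had none in any pre-pro-B library. It had 5, 4, 4 and 4 peaks in Mki67-/- and 4, 5, 4 and 4 in WT pro-B libraries, and 3, 4, 4 and 3 in Mki67-/- and 1, 1, 2 and 2 in WT small pre-B libraries. Vpreb3 had 2 peaks in every pre-pro-B library. It had 5, 6, 5 and 6 in Mki67-/- and 5, 5, 7 and 6 in WT pro-B libraries, and 6, 6, 6 and 5 in Mki67-/- and 6, 6, 5 and 5 in WT small pre-B libraries, which overlapped throughout.

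**Figure D1:**
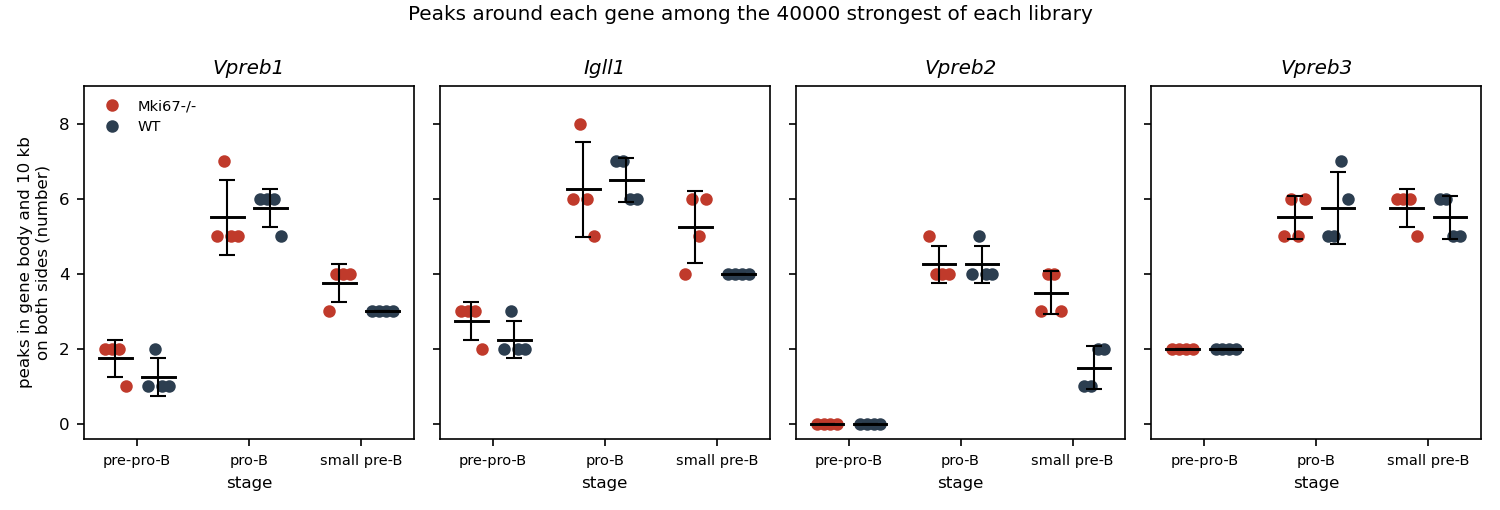
Each point is 1 library: the y axis gives the number of its 40000 strongest peaks that lie in the gene body and 10 kb on both sides, the x axis the stage, with Mki67-/- libraries in red and WT libraries in dark blue. Horizontal lines are means and bars are SDs (n = 4 each); Vpreb2 has 0 peaks in all pre-pro-B libraries and the genotypes stand apart in small pre-B cells, where Mki67-/- libraries have 3 or 4 and WT libraries 1 or 2.

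From pre-pro-B to pro-B, commitment to the B lineage, all 4 genes had more peaks. Vpreb2 averaged 4.25 ± 0.463 peaks in pro-B libraries and 0 in pre-pro-B libraries (SD, n = 8 each, both genotypes). Vpreb1 averaged 5.625 ± 0.744 in pro-B and 1.5 ± 0.535 in pre-pro-B libraries, and Igll1 6.375 ± 0.916 in pro-B and 2.5 ± 0.535 in pre-pro-B libraries. Vpreb3 averaged 5.625 ± 0.744 in pro-B and 2 ± 0 in pre-pro-B libraries. For each gene the exact permutation p, with stage exchanged within genotype, was 0.000408, the smallest this design allows, and the Benjamini-Hochberg adjusted p over all genes tested was 0.00164. A gene or region is called where the adjusted p is below 0.05. Gains were common at this step, since 24.8% of 16218 genes were called with more peaks and 21.1% with fewer. The strongest peak of each window also stood higher in the ranking by -log10 q, in which 1 is the strongest. All 4 genes were called higher-ranked in pro-B cells, as were 32.6% of genes. The Vpreb1 and Igll1 windows share their strongest peak, with a log2 difference of -2.62 for both. In pro-B libraries it lay at the Igll1 start (geometric mean rank 866), in pre-pro-B libraries at the start of the neighbouring gene Top3b (5327). The difference thus compares different sites. A window of 2 kb leaves out the Igll1 start but keeps the Top3b start. With it Vpreb1 was called the other way, at 0.57 (exact permutation test, adjusted p = 0.00416). The Top3b start alone gave 0.60, whereas the Vpreb1 start had a peak in 8 of 8 pro-B and 0 of 8 pre-pro-B libraries. In bulk cells, a site open in fewer cells and a site less open in every cell cannot be told apart.

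The changed sites included the starts of Igll1, Vpreb1 and Vpreb2. A region at the Igll1 start (chr16:16863680-16864536, exon and upstream sequence) held the strongest peak of the 18 regions in every pro-B library. Its peak ranked 711, 1157, 1051 and 1042 in Mki67-/- and 577, 1062, 793 and 720 in WT pro-B libraries, within the top 1.62% of each deposited list. A peak was also deposited in every pre-pro-B library, where it ranked between 30550 and 50298 in Mki67-/- and between 42064 and 54311 in WT libraries, so the stages did not overlap. The region at the Vpreb1 start (chr16:16869112-16869518) had a peak in 8 of 8 pro-B and 0 of 8 pre-pro-B libraries, also in the whole deposited lists. Its rank in pro-B cells ran from 9832 to 13085 in Mki67-/- and from 11703 to 14514 in WT libraries. The Vpreb2 start (chr16:17979864-17980782) likewise had a peak in 8 of 8 pro-B and 0 of 8 pre-pro-B libraries, at ranks of 5537 to 7030 in Mki67-/- and 7571 to 9416 in WT pro-B libraries.

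Sites away from these annotated starts also had a peak among the 40000 strongest in 8 of 8 pro-B and 0 of 8 pre-pro-B libraries. They lay 5.7 kb downstream of the Igll1 start, past its end (chr16:16857837-16858783), 10.9 kb and 1.2 kb upstream of the Vpreb2 start (chr16:17968917-17969872 and chr16:17979096-17979569) and 6.4 kb downstream of it (chr16:17986621-17987054). The site 1.2 kb upstream overlaps the 5′ end of the Vpreb2 gene body (chr16:17979445-17981274), which begins before the start used here. In the whole deposited lists, the first and the last of these 4 sites had lower-ranked peaks in 6 of 8 pre-pro-B libraries each. Around Vpreb3, whose product is thought to act within the cell, a region spanning the 3′ end of the gene (chr10:75949292-75950708) had a peak in 8 of 8 pro-B and 0 of 8 pre-pro-B libraries. It ranked 4758 to 6712 in Mki67-/- and 4536 to 5818 in WT pro-B libraries. Another such region lay 10.2 kb upstream of the Vpreb3 start, over Chchd10 and Gm867 (chr10:75937253-75938493). The region just downstream of the 3′ end (chr10:75950775-75952220) had a peak at both stages but in different parts. Its first stretch (chr10:75950775-75951299) had a peak in 8 of 8 pro-B and 0 of 8 pre-pro-B libraries, and its second (chr10:75951410-75952220) in 4 of 8 pro-B and 8 of 8 pre-pro-B libraries, which did not pass (exact permutation test, adjusted p = 0.182).

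Counted by the presence of a peak, 10 of 16 tested regions were called higher in pro-B and 0 lower. Each of the 10 had an adjusted p of 0.00151 or 0.00602 by exact permutation test. Of 59235 regions over the genome, 19.6% were called higher. In either direction, 27168 of them had an unadjusted p below 0.05 by the same test, and the share called lower is not reported here. Counted by rank, a test added after the data were seen, 10 of 14 were called higher-ranked and 2 lower-ranked in pro-B cells, against 38.2% and 43.9% of 54597 regions. Here a library with no peak among its 40000 strongest was ranked just past the last of them. The Igll1 start then had a geometric mean rank of 866 in pro-B and 38676 in pre-pro-B libraries, a log2 difference of -5.48 (n = 8 each, exact permutation test, adjusted p = 0.00076). Negative log2 differences of rank mean a peak nearer the top of the list in the group named first. A rank places a peak among the others of its library and is not a level of accessibility. Both lower-ranked regions belong to neighbours. The start of Top3b, a DNA topoisomerase gene (chr16:16870354-16871547), had geometric mean ranks of 8083 in pro-B and 5327 in pre-pro-B libraries. A region inside Chchd10 (chr10:75935527-75936572) had 19916 in pro-B and 9941 in pre-pro-B libraries. Regions 5 kb upstream of the Vpreb3 start and 6.4 kb downstream of it (chr10:75943012-75943411 and chr10:75954225-75954844, the second at the start of the long noncoding RNA Gm40698) had peaks in no pro-B or small pre-B library and in 5 and 8 of 8 pre-pro-B libraries. They were below the 40000 strongest and were not tested at this step. The region 5 kb upstream overlaps the 5′ end of the Vpreb3 gene body, which begins before the start used here.

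**Figure D2:**
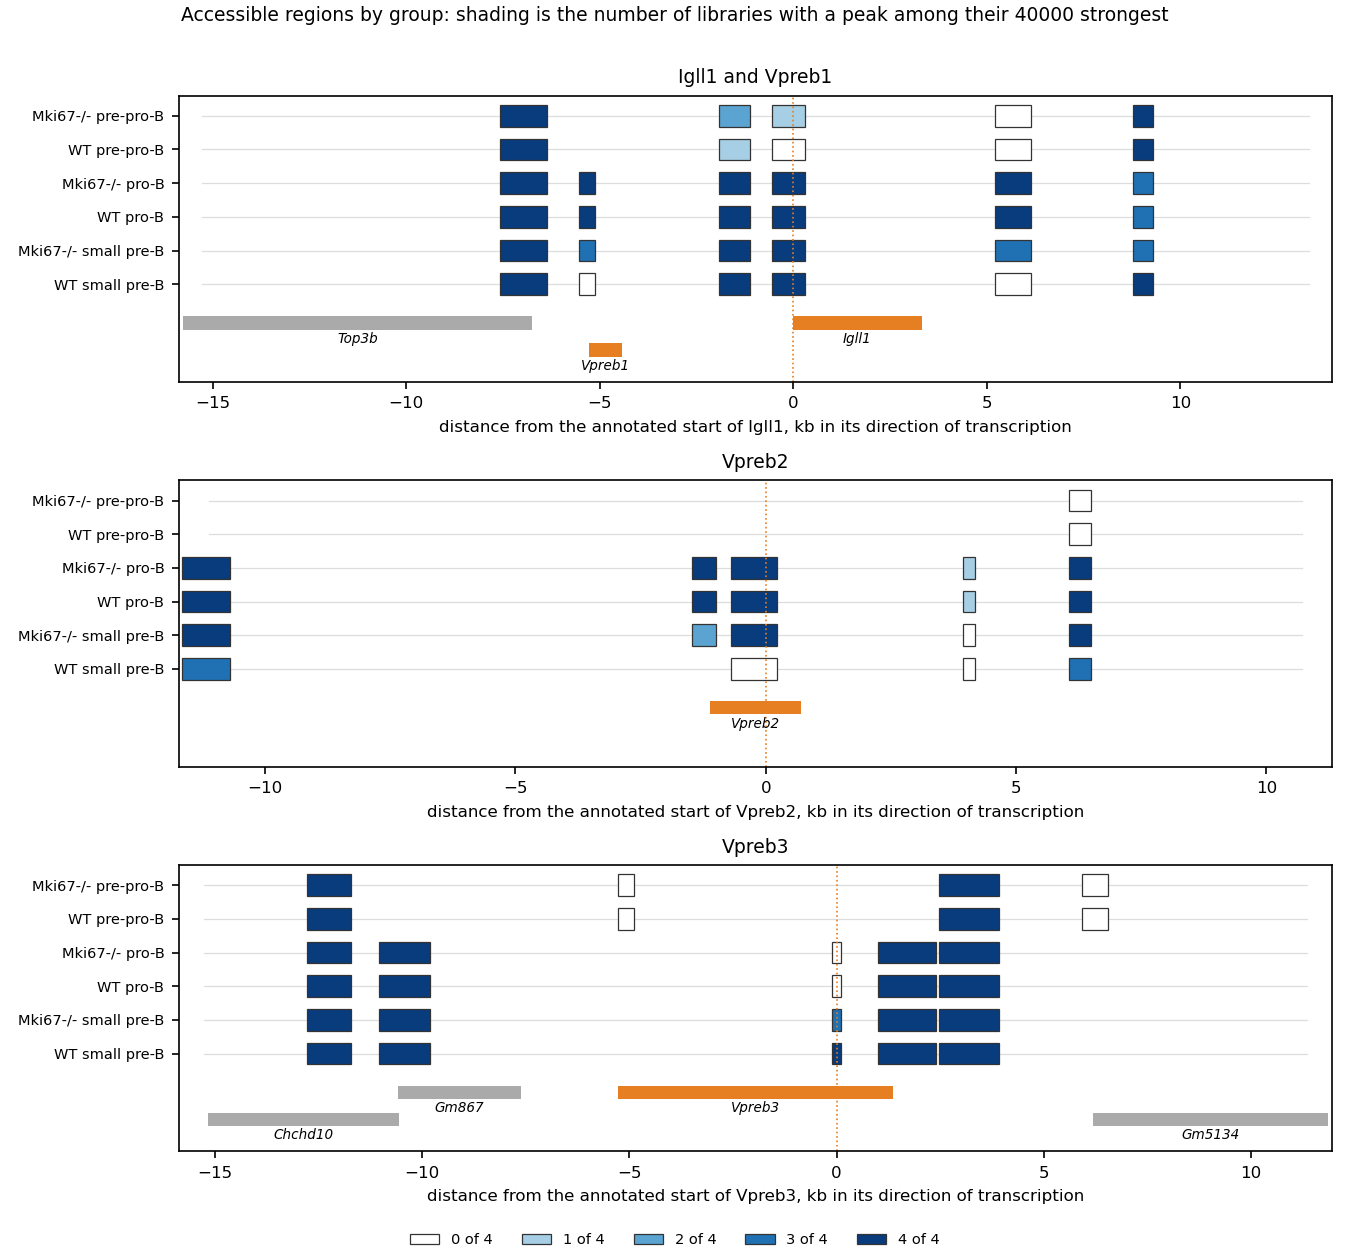
The x axis is the distance from the annotated start of Igll1, Vpreb2 or Vpreb3 in kb along the direction of transcription, and each row is a group. Boxes are regions with a deposited peak in at least 1 library of the group, shaded by how many of its 4 libraries had one among their 40000 strongest (white for 0); bars below are gene bodies, orange for the 4 genes and grey for neighbours. The boxes at the Vpreb1 and Vpreb2 starts are missing in pre-pro-B, full in pro-B, and white in WT but shaded in Mki67-/- small pre-B cells.

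Some markers of other cells moved with this step. The windows of 8 T-cell genes together held 14 to 16 peaks in Mki67-/- and 15 or 16 in WT pro-B libraries, against 27 to 30 in Mki67-/- and 29 to 31 in WT pre-pro-B libraries. Of these genes, Cd3e, Cd8a and Cd8b1 had no peak in any pro-B library. The sums for 8 myeloid genes were 7 to 9 in Mki67-/- and 6 to 9 in WT pro-B libraries, against 12 to 17 in Mki67-/- and 13 to 16 in WT pre-pro-B libraries. For 8 plasmacytoid dendritic cell genes they were 34 or 35 in Mki67-/- and 33 to 35 in WT pro-B libraries, against 31 to 38 in Mki67-/- and 32 to 35 in WT pre-pro-B libraries. Of these genes, 2 were called with more and 5 with fewer peaks, and Klk1 and Cox6a2 had none in any pro-B library. For 8 erythroid genes they were 10 to 13 in Mki67-/- and 8 to 10 in WT pro-B libraries, against 13 or 14 in Mki67-/- and 11 to 13 in WT pre-pro-B libraries. T-cell and myeloid sums were thus lower at the pro-B stage without overlap. The part of other cells in the differences around the surrogate light chain genes was not tested.

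From pro-B to small pre-B, the stage at which light-chain genes are recombined, the VpreB and Igll1 windows lost peaks. Vpreb1 averaged 3.375 ± 0.518 peaks in small pre-B and 5.625 ± 0.744 in pro-B libraries (SD, n = 8 each, exact permutation test, adjusted p = 0.00467). Vpreb2 averaged 2.5 ± 1.20 in small pre-B and 4.25 ± 0.463 in pro-B libraries (adjusted p = 0.0231), and Igll1 4.625 ± 0.916 in small pre-B and 6.375 ± 0.916 in pro-B libraries (adjusted p = 0.032). For Vpreb3 the means were both 5.625, and the difference of 0 had an adjusted p of 1. So 3 of 4 genes were called with fewer peaks and none with more, while 11.9% of 15744 genes were called with fewer and 11.4% with more. With the whole deposited lists, none of the 4 genes passed; the differences were -1.25 for Vpreb1, -1.25 for Vpreb2, -0.75 for Vpreb3 and -0.5 for Igll1. Igll1 also missed the threshold without the 3 libraries that stood apart (adjusted p = 0.082). By rank of the strongest peak, all 4 windows were lower-ranked in small pre-B cells, as were 26.1% of genes. The Vpreb1 and Igll1 windows again shared their strongest peak. In pro-B and Mki67-/- small pre-B libraries it lay at the Igll1 start. In WT small pre-B libraries it lay at the Top3b start, at ranks of 5632 to 7639. With a window of 2 kb, which keeps the Top3b start and leaves out the Igll1 start, Vpreb1 was not called, at -0.15.

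Single regions moved by different amounts in the ranking. The peak at the Igll1 start ranked 5630, 3439, 5663 and 4340 in Mki67-/- and 8411, 8599, 8283 and 8961 in WT small pre-B libraries, within the top 10.4% of each Mki67-/- and 13.6% of each WT deposited list. The genotypes did not overlap. Its geometric mean rank was 6323 in small pre-B and 866 in pro-B libraries, a log2 difference of 2.87 (n = 8 each, exact permutation test, adjusted p = 0.00102). The authors' fold enrichment of the same peak over local background went the other way, averaging 13.98 in Mki67-/- and 16.1 in WT small pre-B libraries, against 11.5 in Mki67-/- and 14.1 in WT pro-B libraries. Fold enrichments are relative to each library's own background and were not tested between libraries. The region 1.4 kb upstream of Igll1 (chr16:16865104-16865904) had 25421 in small pre-B and 8786 in pro-B libraries. At the Vpreb1 start, a peak was among the 40000 strongest in 3 of 4 Mki67-/- and 0 of 4 WT small pre-B libraries, at ranks of 20818, 27070 and 24972 in the 3. The Vpreb2 start ranked 28260, 18571, 19543 and 18296 in Mki67-/- small pre-B libraries. In WT small pre-B libraries it ranked 56410, 45496 and 47631 and had no peak in the fourth, replicate 2. The log2 rank differences between small pre-B and pro-B libraries were 1.43 for the Vpreb1 start and 2.04 for the Vpreb2 start, each with an adjusted p of 0.00102 by exact permutation test.

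At the Vpreb3 start the order of the stages was another. A short region there (chr10:75948178-75948397, exon and upstream sequence) was among the 40000 strongest in 7 of 8 small pre-B and 0 of 8 pro-B libraries (exact permutation test, adjusted p = 0.0138). In small pre-B cells it ranked 27658, 29426 and 30299 in 3 Mki67-/- libraries and had no peak in replicate 1, and it ranked 39471, 30451, 26786 and 32734 in the WT libraries. In pro-B cells the whole lists had a peak there in 4 Mki67-/- and 3 WT libraries, at ranks of 42423 to 57032 in Mki67-/- and 44976 to 49245 in WT libraries. The region just downstream of the gene (chr10:75950775-75952220) had a geometric mean rank of 8011 in small pre-B and 19014 in pro-B libraries, and the one at its 3′ end 7746 in small pre-B and 5387 in pro-B libraries. The first was thus higher-ranked (log2 difference -1.25) and the second lower-ranked (0.52) in small pre-B cells, with adjusted p-values of 0.00102 and 0.00189 by exact permutation test (n = 8 each).

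By presence, 1 of 15 tested regions was called higher in small pre-B cells, the Vpreb3 start, and 1 lower. The lower one, 1.2 kb upstream of the Vpreb2 start, had a peak in 2 of 8 small pre-B and 8 of 8 pro-B libraries (exact permutation test, adjusted p = 0.0335). Backgrounds were 8.18% higher and 10.1% lower of 51944 regions. By rank, 3 of 15 were called higher-ranked and 9 lower-ranked, against 36.4% and 34% of 46380 regions. Of the 9 lower-ranked regions, 8 lie in the Igll1, Vpreb1 and Vpreb2 windows and the last is the Vpreb3 3′ end. The third higher-ranked region, 9 kb downstream of the Igll1 start (chr16:16854696-16855219), had geometric mean ranks of 29540 in small pre-B and 36603 in pro-B libraries.

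**Figure D3:**
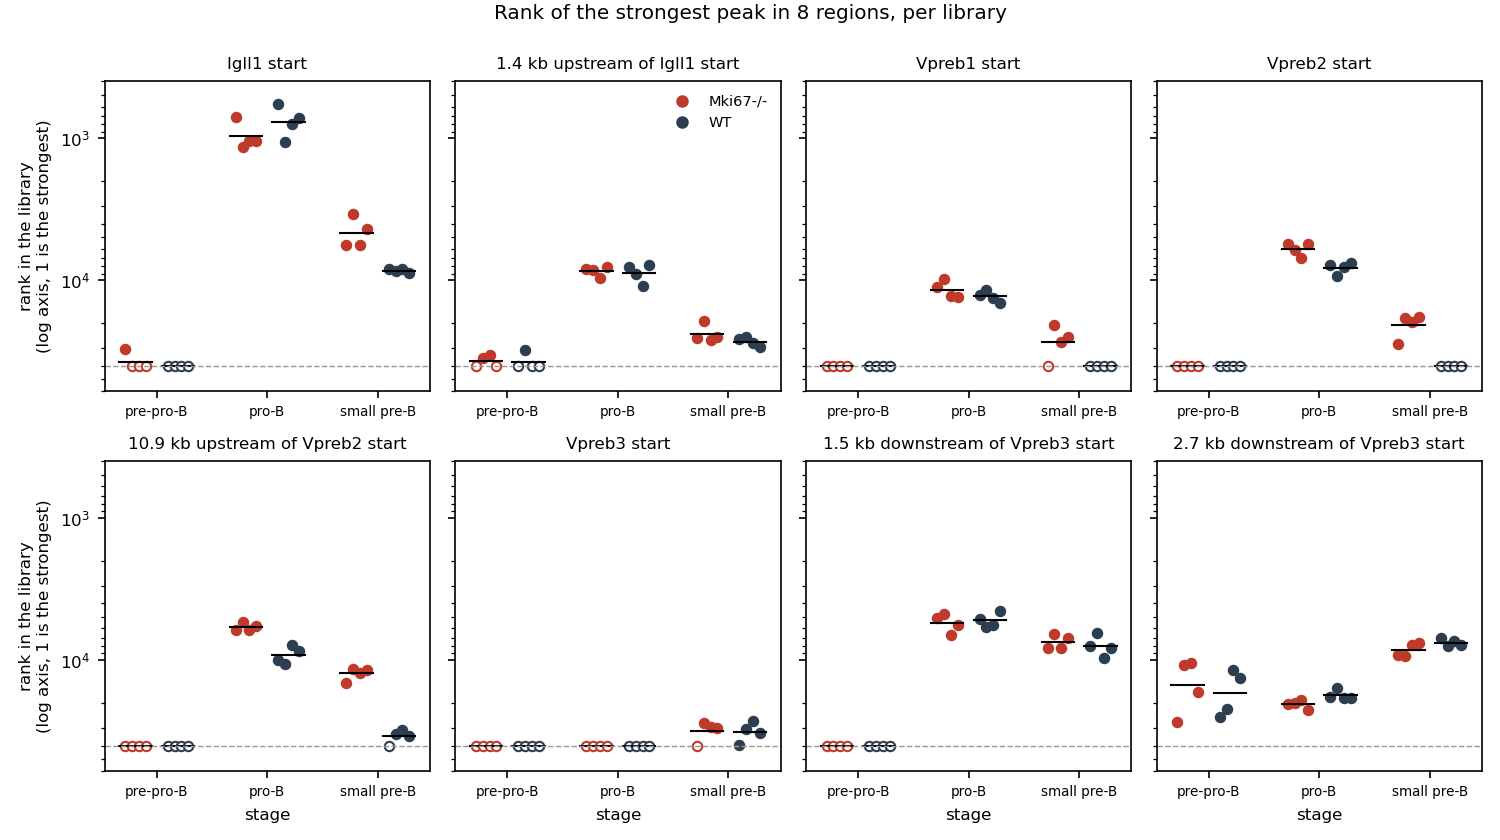
Each point is 1 library's strongest peak in the region, on a log axis of rank with strong peaks at the top; open points on the dashed line had no peak among the 40000 strongest. Red points are Mki67-/- and dark blue points WT libraries, 4 per group, and lines are geometric means; the Igll1 start lies between ranks 577 and 1157 in pro-B cells, and the Vpreb3 start is above the line in small pre-B cells only.

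Small pre-B cells did not return to the pre-pro-B pattern. All 4 genes had more peaks than in pre-pro-B libraries, by 1.875 for Vpreb1, 2.125 for Igll1, 2.5 for Vpreb2 and 3.625 for Vpreb3 (n = 8 each, exact permutation test, adjusted p = 0.00179 for each). In the whole deposited lists Igll1 did not pass, at 1.375 (adjusted p = 0.069 by the same test). Vpreb2 did not pass with the 20000 strongest peaks (adjusted p = 0.0731) or a window of 5 kb (0.0669), by the same test. With a window of 2 kb neither Vpreb1 (0.282) nor Vpreb2 (0.0717) passed. Of 16051 genes, 24.2% were called with more peaks and 21% with fewer. By rank of the strongest peak, Vpreb2 and Vpreb3 were called higher-ranked in small pre-B cells, as were 31.6% of genes. In either direction, 12130 of 16051 genes had an unadjusted exact permutation p below 0.05. Vpreb1 and Igll1 were called in neither direction, with a log2 difference of 0.10 (exact permutation test, adjusted p = 0.529). Their strongest peak in pre-pro-B and in WT small pre-B libraries was the one at the Top3b start. With windows of 2 kb, which keep the Top3b start in the Vpreb1 window only, the log2 rank difference of Igll1 was -2.52 and that of Vpreb1 0.42, both past the threshold in opposite directions. Counted by presence, 6 of 15 regions were called higher and 0 lower, beside 16.5% of 57981 regions called higher. In either direction, 24775 of the 57981 had an unadjusted exact permutation p below 0.05, and the share called lower is not reported here. By rank, 10 of 12 were higher-ranked and 2 lower-ranked, beside 37% and 44% of 52820 regions, and the Igll1 start had geometric mean ranks of 6323 in small pre-B and 38676 in pre-pro-B libraries. The Vpreb1 start was not called by presence, with a peak in 3 of 8 small pre-B and 0 of 8 pre-pro-B libraries (exact permutation test, adjusted p = 0.285). Nor was the Vpreb2 start, with a peak in 4 of 8 small pre-B and 0 of 8 pre-pro-B libraries (adjusted p = 0.0725 by the same test). At both starts, every small pre-B library with such a peak was Mki67-/-.

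No difference in the number of peaks between Mki67-/- and WT libraries passed the test across stages. In the whole deposited lists the 4 windows differed by 0.17 for Vpreb1, 0.25 for Igll1, 0.5 for Vpreb2 and -0.42 for Vpreb3, Mki67-/- minus WT (n = 12 each, permutation test, adjusted p = 1 for each). None of the 17598 genes tested was called, that is 0% with more and 0% with fewer peaks, and 893 had an unadjusted p below 0.05. Counted by presence, none of the 18 regions and 0% of 107539 regions were called in either direction, with 1978 at an unadjusted p below 0.05. By rank of the strongest peak among the 40000, only Vpreb2 of the 4 genes was called, with a higher-ranked peak in Mki67-/- libraries. Its geometric mean rank was 14137 in Mki67-/- and 21613 in WT libraries, a log2 difference of -0.61 (n = 12 each, permutation p = 0.000408, adjusted p = 0.0342), beside 1.11% of 16349 genes called higher-ranked. These values include the pre-pro-B libraries, which had no Vpreb2 peak among the 40000 and were all ranked just past the end. Only pro-B and small pre-B libraries therefore inform the p. The adjusted p was 0.0747 without the 3 libraries that stood apart and 0.477 with a window of 50 kb, so the call was lost in both.

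The Vpreb2 difference lay at 2 regions. The region 10.9 kb upstream of its start ranked 6140, 5399, 6200 and 5766 in Mki67-/- and 9992, 10585, 7875 and 8633 in WT pro-B libraries. In small pre-B cells the region 10.9 kb upstream ranked 14401, 11567, 12303 and 11704 in Mki67-/- and 52223, 33161, 31251 and 34245 in WT libraries. Every Mki67-/- library ranked it higher than every WT library at both stages, and no pre-pro-B library had a peak. The authors' fold enrichment there was higher in every Mki67-/- library in small pre-B cells, at 14.9 to 22.3 in Mki67-/- and 9.05 to 12.4 in WT libraries. In pro-B cells it was lower in every Mki67-/- library, at 19.7 to 21.5 in Mki67-/- and 22.7 to 26.2 in WT libraries, opposite to the rank. The Vpreb2 start, whose ranks are given above, showed the same separation of ranks at both stages. Its fold enrichment in pro-B cells was also opposite to the rank, at 16.1 to 18.2 in Mki67-/- and 18.5 to 20.5 in WT libraries, while in small pre-B cells it averaged 12.8 in Mki67-/- libraries and 7.73 in the 3 WT libraries with a peak. Over all stages the log2 rank differences were -0.71 and -0.46 (n = 12 each, permutation test, adjusted p = 0.0271 for each). The pre-pro-B libraries, all without a peak, were ranked just past the end in both genotypes. These 2 regions were the only ones called of 15 tested in the windows, beside 1.9% of 59703 regions called higher-ranked. Both calls were lost without the 3 libraries that stood apart, at log2 differences of -0.71 and -0.51 (permutation test, adjusted p = 0.0634 for each), and that of the start without WT small pre-B replicate 1 (adjusted p = 0.0501).

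Within single stages, 4 against 4 libraries give an exact p no smaller than 0.0286, and the p-values given are not adjusted over genes or regions. In small pre-B cells Vpreb2 averaged 3.5 ± 0.577 peaks among the 40000 strongest in Mki67-/- and 1.5 ± 0.577 in WT libraries (SD, n = 4 each, exact permutation p = 0.0286). Such a complete separation with more peaks in Mki67-/- was seen in 1.35% of 15058 genes. In the whole deposited lists the values were 4.25 ± 0.957 in Mki67-/- and 3 ± 0.816 in WT libraries (n = 4 each, exact permutation p = 0.2) and overlapped; 0.483% of 16342 genes stood apart there. The other 3 genes overlapped in both lists, with Igll1 at 5.25 ± 0.957 in Mki67-/- and 4 ± 0 in WT libraries among the 40000 strongest (exact permutation p = 0.143). Without the 2 small pre-B libraries that stood apart, Vpreb2 averaged 3.67 ± 0.577 in Mki67-/- and 1.67 ± 0.577 in WT libraries (n = 3 each, exact permutation p = 0.1, the smallest possible). Every Mki67-/- value was then above every WT value for Vpreb2, and also for Vpreb1 and Igll1, whose windows share most of their peaks. The share of all genes that stood apart with n = 3 each was not counted, so these separations cannot be weighed. The Vpreb2 effect of genotype in small pre-B cells exceeded that in pro-B cells by 2 peaks (exact permutation p = 0.0469) and that in pre-pro-B cells by 2 peaks (exact permutation p = 0.0286), but the adjusted p was 1 in both.

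Ranks of regions separated the genotypes at more sites than peak numbers did. In small pre-B cells, the peak ranked higher in every Mki67-/- library than in every WT library at 3 of 15 regions of the windows (20%), the Igll1 start, the Vpreb2 start and the region 10.9 kb upstream of it, beside 7.26% of 42175 regions. At the Igll1 start the geometric mean ranks were 4671 in Mki67-/- and 8560 in WT small pre-B libraries, a log2 difference of -0.87 (n = 4 each, exact permutation p = 0.0286). Its fold enrichment was lower in every Mki67-/- library, at 13.2 to 14.5 in Mki67-/- and 15.6 to 17.1 in WT small pre-B libraries, opposite to the rank. The peak ranked lower in every Mki67-/- library at 1 of 15 regions (6.67%), the one 9 kb downstream of the Igll1 start, beside 6.23%. In pro-B cells Mki67-/- libraries all ranked higher at 4 of 15 regions (26.7%), 3 around Vpreb2 and the one 5.7 kb downstream of the Igll1 start, beside 7.37%. They all ranked lower at 2 of 15 (13.3%), the Top3b start and the region just downstream of Vpreb3, beside 7.67%. The Igll1 start overlapped in pro-B cells, with geometric mean ranks of 974 in Mki67-/- and 769 in WT libraries (n = 4 each, exact permutation p = 0.314). In pre-pro-B cells none of 5 regions stood apart.

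The genotypes also differed over the genome in how many pro-B sites small pre-B cells kept, a comparison added after the data were seen. Among the 40000 strongest peaks, 7814 regions had a peak in all 8 pro-B and in no pre-pro-B library. Small pre-B libraries had a peak at 66.5 ± 6.70% of them in Mki67-/- and 52.0 ± 2.57% in WT cells (SD, n = 4 each, exact permutation p = 0.0286). Of the 8 such regions in the windows of the 4 genes, 6, 8, 7 and 7 had a peak in Mki67-/- and 3, 3, 4 and 4 in WT small pre-B libraries. The genotypes did not overlap in either measure, and the part of the genome-wide difference in the Vpreb2 result was not tested. In the whole deposited lists, 10455 regions met the rule and the shares overlapped, at 65.6 ± 13.8% in Mki67-/- and 50.9 ± 2.63% in WT libraries (n = 4 each, exact permutation p = 0.143). Without the 2 libraries that stood apart, the shares among the 40000 were 69.3 ± 4.54% in Mki67-/- and 53.3 ± 0.317% in WT libraries (n = 3 each, exact permutation p = 0.1). Whether the small pre-B gates of the 2 genotypes held cells of different maturity was not tested. B-lineage marker sums overlapped, at 49 to 54 in Mki67-/- and 48 to 54 in WT small pre-B libraries. T-cell sums were 12 to 16 in Mki67-/- and 14 in every WT library, and myeloid sums 9 to 12 in Mki67-/- and 11 to 13 in WT libraries. Erythroid sums were 10 to 14 in Mki67-/- and 9 to 11 in WT libraries, and plasmacytoid dendritic cell sums 34 to 37 in Mki67-/- and 29 to 34 in WT libraries. Of the plasmacytoid dendritic cell genes, Klk1 had no peak in either.

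**Figure D4:**
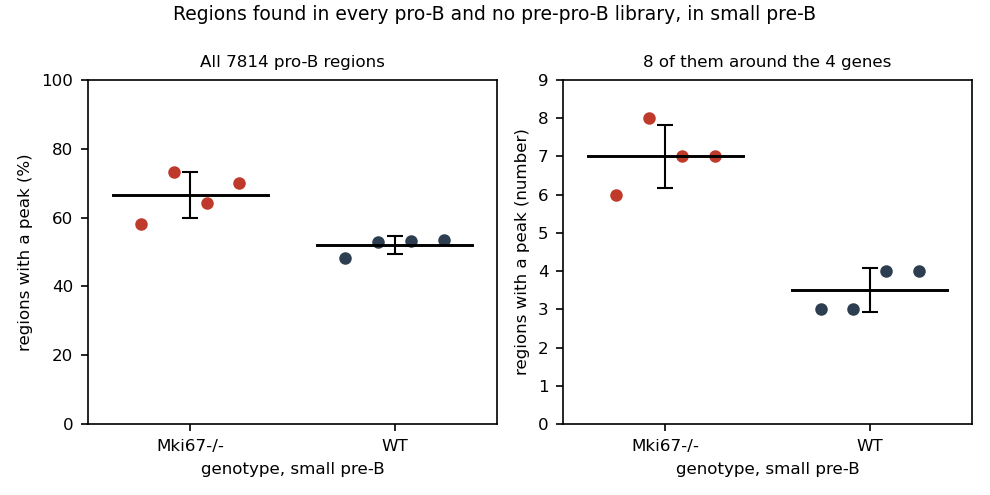
Points are the 4 Mki67-/- (red) and 4 WT (dark blue) small pre-B libraries, lines are means and bars SDs. The y axis gives, on the left, the percentage of the 7814 regions found in every pro-B and no pre-pro-B library that had a peak, and on the right how many of the 8 around the 4 genes did, with Mki67-/- libraries at 6 to 8 and WT libraries at 3 or 4.

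Genes that act with the surrogate light chain were counted in the same way. Of 16 genes for partners and signalling of the pre-B-cell receptor, 10 had more and 2 fewer peaks in pro-B than in pre-pro-B cells, where 24.8% of all genes had more and 21.1% fewer. Their median difference was 1.94 peaks, beside 0 over all genes. They included Cd79b, a signalling chain of the receptor, with 6.125 ± 0.354 peaks in pro-B and 2.25 ± 0.463 in pre-pro-B libraries. Fyn, a Src-family kinase, had 12.4 ± 1.19 in pro-B and 6.125 ± 0.991 in pre-pro-B libraries, and Plcg2, a phospholipase, 11.1 ± 1.13 in pro-B and 7.375 ± 0.518 in pre-pro-B libraries (SD, n = 8 each, exact permutation test, adjusted p = 0.00164 for each of these 3). Between small pre-B and pro-B cells 2 rose and 1 fell, shares near or below those of all genes (11.4% more, 11.9% fewer), with a median difference of 0.44. Blk, another Src-family kinase, rose to 6.875 ± 0.354 in small pre-B libraries, against 4.625 ± 0.744 in pro-B ones (exact permutation test, adjusted p = 0.00467). Pik3ap1, an adaptor of PI3-kinase, had 14.1 ± 0.991 in small pre-B and 12.1 ± 0.835 in pro-B libraries (adjusted p = 0.0149), and Fyn fell to 7.75 ± 2.12, against 12.4 ± 1.19 (adjusted p = 0.00831). Against pre-pro-B cells, small pre-B cells had more peaks at 11 of the 16 genes and fewer at 2, where 24.2% of all genes had more and 21% fewer. Among those with more was Cd79a, the other signalling chain, with 6.875 ± 0.354 in small pre-B and 3.75 ± 0.463 in pre-pro-B libraries (adjusted p = 0.00179).

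Of 17 genes for factors that regulate these loci or act beside such factors, 14 had more and 0 fewer peaks in pro-B than in pre-pro-B cells, beside the 24.8% and 21.1% of all genes, with a median difference of 2.625 peaks. Ebf1, which activates Igll1 and the VpreB genes together with E proteins, had 17.4 ± 1.60 peaks in pro-B and 4.875 ± 1.36 in pre-pro-B libraries. Pax5, which commits cells to the B lineage, had 12.75 ± 0.463 in pro-B and 7 ± 0.756 in pre-pro-B libraries. Ikzf3, which encodes Aiolos, a repressor of Igll1 in pre-B cells, had 9.125 ± 0.991 in pro-B and 3.625 ± 0.916 in pre-pro-B libraries, and the E protein gene Tcf12 12.25 ± 1.04 in pro-B and 9 ± 0.926 in pre-pro-B libraries (SD, n = 8 each, exact permutation test, adjusted p = 0.00164 for each). From pro-B to small pre-B cells 6 rose and 3 fell, beside 11.4% and 11.9% of all genes, with a median difference of 0.375. Runx1 fell to 10.5 ± 2.33, against 15.4 ± 1.19 in pro-B libraries, and Pax5 to 9.625 ± 1.19, against 12.75 ± 0.463. Spib, an Ets-family gene, rose to 8.5 ± 0.926, against 5.875 ± 0.354 (exact permutation test, adjusted p = 0.00467 for each of these 3), and Sox4 to 5.375 ± 0.744, against 4.125 ± 0.354 (adjusted p = 0.0111). Small pre-B cells had more peaks than pre-pro-B cells at 14 of the 17 genes and fewer at 0, beside 24.2% and 21% of all genes, with Ikzf3 at 12.25 ± 1.58 in small pre-B and 3.625 ± 0.916 in pre-pro-B libraries. None of the 16 and none of the 17 genes was called between genotypes.

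The 4 genes varied together to different degrees across the 24 libraries, which share the grouping by stage. The length of each window covered by the 40000 strongest peaks had a Pearson correlation of 0.921 between Vpreb2 and Vpreb1, of 0.841 between Vpreb2 and Vpreb3, and of 0.693 between Igll1 and Vpreb3. The value of 0.987 between Vpreb1 and Igll1 rests on windows that overlap. Among the 5 genes elsewhere whose covered length was most like Vpreb1 were Zan, Adam33, Gch1 and Tmem255b, with correlations of 0.943 to 0.958. The 5 most like Igll1 included Zan, Cys1, Rbp2 and Duox2, with 0.945 to 0.963, and those most like Vpreb2 were Stx8, Ephb4, Atad1, Fam81b and Majin, with 0.963 to 0.968. Vpreb3 was most like Ceacam2, Rnf41, Fetub, Terb1 and Sorbs2, with 0.955 to 0.957. Zan had a mean covered length of 3875 bases in Mki67-/- and 3343 in WT pro-B libraries, and of 1394 in Mki67-/- and 392 in WT small pre-B libraries. For Vpreb2 these lengths were 2149 bases in Mki67-/- and 2068 in WT pro-B libraries, then 1420 in Mki67-/- and 476 in WT small pre-B libraries.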

How the data were processed

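ATAC-seq peak lists of 24 libraries were used, 4 per genotype and stage. Per the submitters' processing notes, Trimmomatic, MACS2, deepTools, DiffBind and DESeq2 were used, with mm10. Versions, the aligner and the handling of reads that map to several places are not given in the sources used here. Each deposited list gives per peak a fold enrichment over local background (a ratio), a -log10 q and a score, and the score was found to be 10 times the -log10 q; these are the authors' own values, of which the -log10 q ranked peaks within a library and the fold is given as a description. Peaks were called in each library, with q at or below 0.01.

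Overlapping entries on chromosomes 1 to 19 and X were merged and ranked by their highest -log10 q. Peaks were counted in each gene's body and 10 kb on both sides, and regions were joined over libraries wherever peaks shared 1 base. Bounds can be narrower where joined over fewer libraries. Libraries were compared by exact or complete permutation within genotype or stage, with Benjamini-Hochberg adjustment over all genes or regions tested. Genes needed a peak in at least 4 of the libraries compared, regions tested by presence between stages one in at least 2 of a single group, and regions tested by rank or between genotypes both. Scripts were tested on simulated data. Tools were Python 3.11.15, numpy 2.4.6, pandas 2.3.3, scipy 1.17.1, numba 0.67.0 and matplotlib 3.10.9.

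The 4 genes and all lists were chosen with earlier results of these data known. Rank tests of regions and the comparison of retained pro-B regions were added after the data were seen. Named were the 4 genes, regions in their windows that 2 or more libraries of some group had a peak in, the 5 genes most alike in covered length, and up to 4 genes per pathway list and stage comparison, by p and then size; some of these are not reported here. Promoters and gene names came from RefSeq. Alternatives were other windows, lists and merging, and leaving out libraries. The lists give no read counts, so depth is known only through the recovered background coverage.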

Additional observations from a re-analysis of the deposited data

Results flagged for a closer look

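In groups of 4 libraries, a library was singled out when its gap to the nearest other exceeded Dixon's 95% limit, which chance exceeds in about 1 in 20 groups of continuous values. With whole-number peak counts, any library that differs from 3 equal ones passes, and 22 of 48 groups did. In the whole deposited lists, the single library that differed had 4 Vpreb1 peaks in Mki67-/- and 4 in WT pre-pro-B cells, and 7 in Mki67-/- pro-B cells. For Igll1 it had 4 in Mki67-/- pre-pro-B, 8 in Mki67-/- pro-B and 4 in WT small pre-B cells. For Vpreb2 it had 0 in Mki67-/- and 0 in WT pre-pro-B and 4 in WT pro-B cells, and for Vpreb3 8 in Mki67-/- and 7 in WT pro-B and 6 in WT small pre-B cells. Among the 40000 strongest peaks, it had 1 Vpreb1 peak in Mki67-/- and 2 in WT pre-pro-B, 7 in Mki67-/- and 5 in WT pro-B, and 3 in Mki67-/- small pre-B cells. It had 2 Igll1 peaks in Mki67-/- and 3 in WT pre-pro-B, 5 Vpreb2 peaks in Mki67-/- and 5 in WT pro-B, and 5 Vpreb3 peaks in Mki67-/- small pre-B cells.

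Of 53 groups of peak ranks, 6 had a library that stood apart. These ranks were 21973 in Mki67-/- pro-B cells inside Chchd10, 15696 in WT pro-B cells just downstream of Vpreb3, and 36827 in WT pre-pro-B cells 9 kb downstream of the Igll1 start. The others were 19230 in Mki67-/- small pre-B cells 1.4 kb upstream of Igll1, 5632 in WT small pre-B cells at the Top3b start, and 28260 in Mki67-/- small pre-B cells at the Vpreb2 start. The last belongs to Mki67-/- small pre-B replicate 1, the library of lowest coverage in its group.

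The genotype effect on Vpreb2 peak number differed between stages by an unadjusted test, by 2 peaks between small pre-B and pro-B cells (exact permutation p = 0.0469) and by 2 between small pre-B and pre-pro-B cells (exact permutation p = 0.0286). Both had an adjusted p of 1, and 0 genes passed, with 449 of 15744 and 343 of 16051 genes at an unadjusted p below 0.05.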

How the results depend on the processing

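Of 1232 alternative values, 1177 were classed as the same, 31 as weaker, 7 as stronger and 17 as reversed. With 1 library left out, 860 of 864 were the same. A difference was the same if it kept its direction and side of the threshold. A count of calls was the same if its ratio to the main count stayed within a set range, so some of these counts had changed. The number of the 4 genes called with a changed peak number between small pre-B and pro-B cells was 3, and 0 with the whole deposited lists. The 2 regions called by presence there became 0 with the whole lists, 4 when peaks had to cover 0.5 of a region, 1 without the 3 doubted libraries, and 2 to 4 with 1 library left out (4 without Mki67-/- small pre-B replicate 2 or 4). Between small pre-B and pre-pro-B cells, a window of 2 kb gave 2 genes by number and 4 by rank, and the 20000 strongest peaks gave 3 regions. For genotype, the 1 gene called by rank became 0 with 50 kb and 0 without the doubted libraries. The 2 regions called by rank became 0 without those libraries, and 1 to 3 with 1 library left out. Within small pre-B cells 0 genes stood apart in the whole lists, and 1 in the 40000 and 1 in the 20000 strongest.

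Same-numbered libraries correlated at -0.16 to 0.0937 between genotypes and -0.0411 to 0.0319 between stages, 0 pairs over 0.1, so no pairing by replicate number was seen. These values cannot show whether libraries of different stages share mice, which the labels do not give. With the replicate block, the calls between small pre-B and pro-B cells were 0 genes by number and 0 regions by presence. Over the genome, 0 of 15744 genes and 0 of 51944 regions passed there. The smallest p this block permutation allows between stages is 0.00781. Between genotypes, 0 genes and 0 regions were called by rank, as were 0 of 16349 genes and 0 of 59703 regions over the genome. Since nothing passed over the genome, these losses of calls cannot be weighed for the genes studied here. Between small pre-B and pre-pro-B cells the calls were 2 regions by presence, where 13345 of 57981 regions passed.

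Reversed values were as follows. In log2 rank differences at 2 kb, Vpreb1 gave 0.57 for pro-B against pre-pro-B, -0.15 for small pre-B against pro-B and 0.13 for Mki67-/- against WT. Igll1 gave -2.52 at 2 kb and -2.52 at 5 kb for small pre-B against pre-pro-B. At 50 kb, Vpreb1 and Igll1 gave -0.40 there and 0.26 between genotypes, and Vpreb3 gave -1.54 for small pre-B against pro-B. The uncalled Vpreb3 rank difference between genotypes was -0.026 at 2 kb and 5 kb, and -0.0053 to 0.092 with 1 library left out. Uncalled genotype differences in number reversed to 0.167 peaks (20000 list) and 101 bp (covered length) for Vpreb3, and to -0.25 for Vpreb1 and -0.167 for Igll1 with unmerged entries. The causes of the changes in calls were not tested.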
